A study of Schizosaccharomyces pombe with 16 samples.

Results

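In fission yeast, Schizosaccharomyces pombe, the intergenic long non-coding RNA genes described here were the rows of the deposited count table with an SPNCRNA identifier on chromosome I, II or III whose span overlapped no protein-coding identifier on either strand, without the centromeres of chromosomes I and II and without the outer 70 kb of those chromosomes. There were 391 such genes among 7019 rows (5.57%), 174 of them on chromosome I, 141 on chromosome II and 76 on chromosome III. Members that overlapped each other on one strand were joined into 363 loci, because a read in an overlap was counted for every row it touched.

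RNA was sequenced from 3 strains, with 2 libraries in each of 8 groups. Wilmar-P, an h90 isolate used in industrial ethanol production that derives from Wilmar-A, was grown in molasses, or shifted after washing to glycerol without glucose (glucose-starved, 3% glycerol), to glycerol with a trace of sugar (glucose-deficient, 3% glycerol and 0.1% glucose) or to 3% glucose. Wilmar-A, the h90 ancestral wild isolate, had the same shifts and no molasses group, and the laboratory strain, of mating type h-, had molasses alone. Shifted cells had grown 4 h in 3% glucose and stayed 4 h in the new medium at 32 degrees, molasses cells had 4 h in molasses, and all libraries were depleted of ribosomal RNA. Each strain is 1 isolate, the labels do not say whether the 2 libraries of a group came from separate cultures, and p-values therefore measure the spread between libraries alone. All reads were counted on the genome of the laboratory strain, so a difference of sequence and a difference of RNA level cannot be told apart at a locus that the Wilmar isolates carry in another form.

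Long non-coding RNAs of fission yeast are made by RNA polymerase II, often from the open chromatin between divergent promoters, and many are destroyed soon after synthesis by the nuclear exosome. A few have known work to do. Transcription upstream of fbp1, the gluconeogenic fructose bisphosphatase gene, opens the chromatin of its promoter when glucose runs out, and meiRNA, made from sme2, binds the meiosis regulator Mei2 and captures Mmi1, the protein that marks meiotic transcripts for decay through copies of a short hexamer.

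The label was tested against the annotation. The median member was 601 bases long (range 56 to 5123), 47 members were shorter than 200 bases, and RefSeq (assembly ASM294v3) gave 349 of them an entry, 340 by identifier and 9 by synonym. These entries were 312 lncRNA, 30 ncRNA of other kinds, 6 snoRNA and 1 protein-coding gene, so the set held some RNAs that are not long non-coding RNAs. The nearest coding row lay a median of 204 bases away (quartiles 85 and 477), and 299 members (76.5%) had an upstream coding neighbour on the opposite strand, the divergent arrangement.

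Sequences of the members on which the results turn were read from the RefSeq genome of the laboratory strain, whose nuclear coordinates matched those of the count table: 1414 of 1431 SPNCRNA rows found by identifier had the same start and end. The first pair is shown because both RNAs were among those that rose most on starvation and both windows hold the core of the binding site of the stress factor Atf1-Pcr1, TGACGT, given in capitals wherever it occurs on either strand. Each window runs from 250 bases before the annotated start to 50 bases from it, 300 bases in all, in the direction of transcription. SPNCRNA.1326, named fbp1-ot2, lies on the minus strand (window chrII:201763-202062), and SPNCRNA.603 lies on the minus strand of chromosome I (window chrI:82296-82595).
fbp1-ot2: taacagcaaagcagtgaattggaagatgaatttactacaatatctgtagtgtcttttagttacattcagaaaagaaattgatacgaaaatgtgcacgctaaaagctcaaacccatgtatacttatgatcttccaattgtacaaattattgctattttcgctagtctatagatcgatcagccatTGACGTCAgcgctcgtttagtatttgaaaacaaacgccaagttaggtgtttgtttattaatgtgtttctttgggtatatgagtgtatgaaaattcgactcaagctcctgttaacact
SPNCRNA.603: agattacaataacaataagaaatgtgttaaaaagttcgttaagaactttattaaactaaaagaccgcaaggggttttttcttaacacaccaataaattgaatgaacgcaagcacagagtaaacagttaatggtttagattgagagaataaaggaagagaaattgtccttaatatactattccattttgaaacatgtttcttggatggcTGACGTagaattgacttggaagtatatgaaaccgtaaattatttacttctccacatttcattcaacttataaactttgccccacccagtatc
In fbp1-ot2 the capitals are 2 overlapping matches, 1 on each strand, and in SPNCRNA.603 there is 1 match. At this window length 430 of 6971 nuclear rows (6.17%) held the motif, against 32 of the 391 members (8.18%) and 8 of the 49 members that were called higher on starvation in both isolates (16.3%). Of the 27 members lower in Wilmar-P than in the laboratory strain on molasses, 4 held it (14.8%). The other motifs searched, also on both strands, were the Rst2 core CCCCTC, in 3 of the 49 (6.12%) and 2.37% of all rows, and the TR box of Ste11, TTCTTTGT, in 0 of the 49 and 3.96% of all rows. These shares are descriptions, and a match is no evidence of binding.

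The second pair, meu3 (SPNCRNA.07) and meu19 (SPNCRNA.29), is shown because the 2 genes lie at opposite ends of chromosome III and turned out to be near copies, so their counts are not independent. The meu3 window is chrIII:42679-42978 on the minus strand and the meu19 window chrIII:2418801-2419100 on the plus strand, and the capital marks the only base at which the 2 windows differ over 297 aligned positions.
meu3: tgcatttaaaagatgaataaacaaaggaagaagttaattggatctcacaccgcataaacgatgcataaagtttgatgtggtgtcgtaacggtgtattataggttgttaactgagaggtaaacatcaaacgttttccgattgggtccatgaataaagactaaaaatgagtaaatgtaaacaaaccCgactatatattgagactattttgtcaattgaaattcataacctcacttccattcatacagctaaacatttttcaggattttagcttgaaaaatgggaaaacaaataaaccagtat
meu19: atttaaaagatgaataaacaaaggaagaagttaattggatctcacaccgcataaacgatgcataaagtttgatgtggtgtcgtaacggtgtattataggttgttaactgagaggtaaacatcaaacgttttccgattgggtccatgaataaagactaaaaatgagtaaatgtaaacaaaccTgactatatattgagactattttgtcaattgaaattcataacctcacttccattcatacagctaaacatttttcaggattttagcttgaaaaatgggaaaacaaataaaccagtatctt
Over the whole rows, 744 and 749 bases long, 664 of 769 aligned columns (86.3%) were identical, with 1 unbroken run of 478 identical bases. Of all 50-base words in meu3, 62.2% occurred again in the nuclear chromosomes, as did 61.3% of those in meu19. How reads that match both copies were placed is not given in the sources used here, so the values of either gene are uncertain on their own. Across the set, 15 members had more than 50% of such words repeated, and 11 of these were tested.

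The third sequence is the part of the sme2 row (SPNCRNA.103) that holds the Mmi1 hexamers of that row, TNAAAC. They were searched on the transcribed strand alone and set in capitals (chrII:339347-339646, minus strand).
sme2: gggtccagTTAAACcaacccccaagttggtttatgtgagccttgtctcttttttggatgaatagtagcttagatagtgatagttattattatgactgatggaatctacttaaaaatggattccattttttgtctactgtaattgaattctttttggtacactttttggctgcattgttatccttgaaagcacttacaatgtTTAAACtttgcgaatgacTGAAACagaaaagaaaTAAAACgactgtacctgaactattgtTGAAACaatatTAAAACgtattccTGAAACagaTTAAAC
All 8 hexamers of the 667-base row lie in this 300-base stretch. That is 12 per kb, the second highest density among the 391 members, whose median was 1.85 per kb beside 1.68 per kb in coding rows. The row is a part of the long sme2 entry in RefSeq, to which it was matched by synonym, and hexamers of that entry outside the row were not counted. The density was 4.01 per kb in meu19, 2.69 per kb in meu3 and 2 per kb in omt3.

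Library totals ran between 13246648 and 18164249 counts, and the members took 0.0988% to 0.322% of them. Between 221 and 322 members had more than 3 counts in a library, 161 had more than 3 in every library, 26 in none, and 2 were at 0 throughout. The libraries labelled unstranded were 3 (replicate 1 of Wilmar-P glucose-deficient, Wilmar-P glucose and Wilmar-A glucose-deficient), and Wilmar-A glucose replicate 1, labelled stranded, stood with them. In those 4 libraries 303 to 322 members had more than 3 counts and the SPNCRNA genes outside the set took 8.29% to 8.60% of all counts, whereas the other 12 libraries had 221 to 279 such members and 1.10% to 2.23%. The 2 values for Wilmar-A glucose replicate 1 were 322 members and 8.60%, the highest of any library. In all, 17 members had more than 3 counts in each of the 4 libraries and 3 or fewer in each of the other 12. The model carried a term for the labelled strandedness, and the counts of Wilmar-A calls against glucose are also given with that library entered as unstranded or left out. A Wilmar-A call of a named member that was lost in either way is given with the adjusted p without that library. With that library entered as unstranded, the common dispersion, the spread between libraries fitted over all genes, fell from 0.1005 to 0.04471. All comparisons share 1 model, and those that do not use that library gained member calls too. In the laboratory comparison 50 members were lower instead of 27. Against glucose, 10 members instead of 4 were higher in deficient Wilmar-P, and 9 instead of 4 on molasses. The shares over all genes in that refit are not given here, so these gains are no trait of the members. Unless stated, p-values keep the label.

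**Figure D1:**
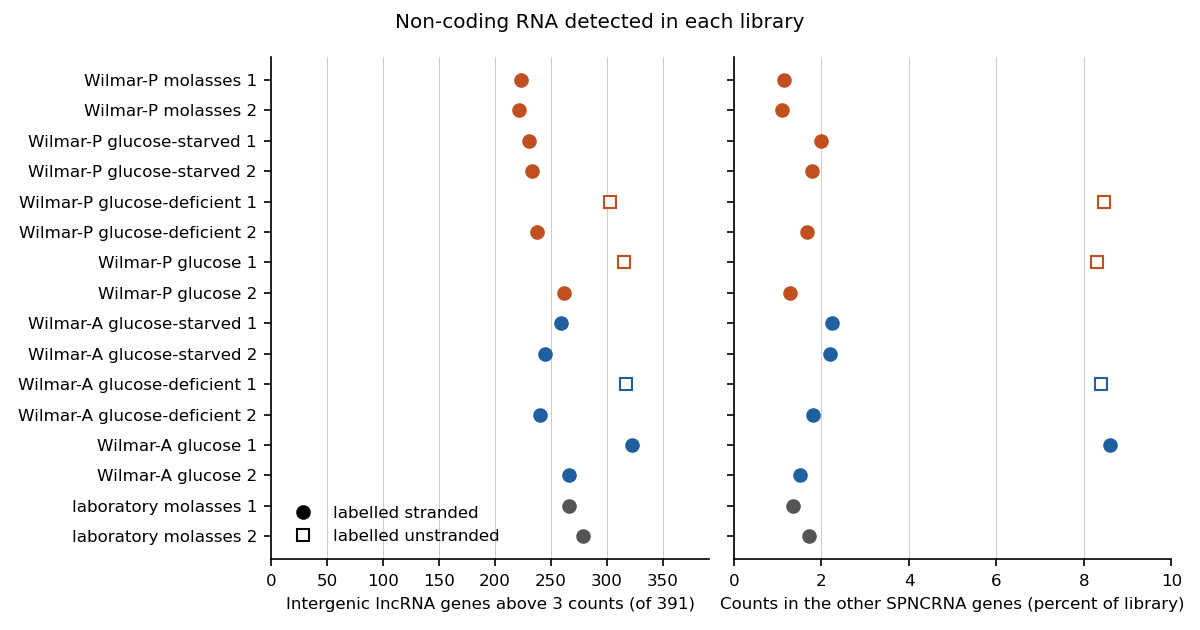
Members with more than 3 counts (left, number of 391) and the share of counts in SPNCRNA genes outside the set (right, percent of the library) in each of the 16 libraries, 1 point per library. Open squares are labelled unstranded. Wilmar-A glucose 1, labelled stranded, sits beside the squares at 322 members and 8.60%.

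Levels are given as CPM, counts scaled to a common library size with TMM factors, and as CPM per kb of the row where genes are compared with each other. Since the RNA came from whole cultures, fewer cells with an RNA and less of it per cell cannot be told apart. Of the 391 members, 304 (77.7%) passed the filter on low counts and entered the test with 6662 genes in all, and they made up 277 loci. The 87 that did not enter had a median highest count of 5 in any library and at most 29. Only 5 of the 30 other ncRNA entries passed, against 262 of the 312 lncRNA entries. The members tested had a median of 2.83 CPM per kb, beside 27.5 CPM per kb for coding rows, and 20 members lay above that coding median. The 6 with the highest level were snoR61 (173.7 CPM per kb), prl59 (121.5), SPNCRNA.1094 (107.3), 2 overlapping rows of mrp1 (70.2 and 65.0) and meu3 (63.2). snoR61 is a small nucleolar RNA gene, mrp1 gives the RNA of the processing enzyme RNase MRP, and SPNCRNA.1094 is made up wholly of repeated 50-base words, so its counts may belong to other loci. In each comparison a gene was called at an absolute log2 fold change above 1 with an adjusted p below 0.05 (edgeR quasi-likelihood test, Benjamini-Hochberg over all 6662 genes). By this rule 141 members (46.4% of those tested), in 126 loci, were called in at least 1 of the 7 comparisons. The same share over all genes was not computed, so 46.4% is no trait of the members. On starvation 27.6% of members in Wilmar-P and 33.9% in Wilmar-A were called, beside 27.9% and 36.4% of all genes.

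**Figure D2:**
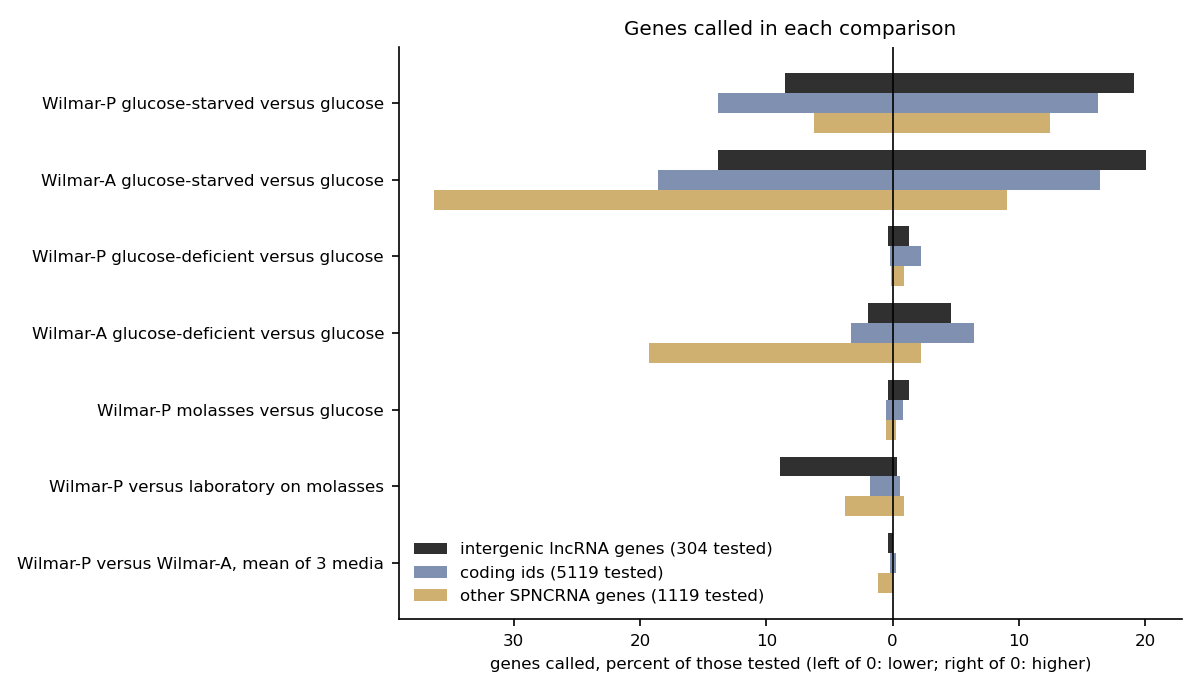
Genes called in each of the 7 comparisons as percent of those tested, higher to the right of 0 and lower to the left, for the members (304 tested), coding rows (5119 tested) and the other SPNCRNA genes (1119 tested). On starvation in Wilmar-P 19.1% of members, 16.3% of coding rows and 12.5% of the other SPNCRNA genes were higher. In the laboratory comparison 8.88%, 1.82% and 3.75% were lower, in the same order.

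More members were called on removal of glucose than in any other comparison. Those that rose in both isolates included the fbp1 upstream RNA, an RNA beside the transporter gene ght3, meiRNA and the small nucleolar RNA snoR61, and those that fell included an overlapping pair beside the iron transport gene str3. In glucose-starved Wilmar-P 58 members (47 loci) were higher than in glucose and 26 (25 loci) were lower. The background over all genes tested was 15.8% higher and 12.1% lower, and the members stood at 19.1% and 8.55%. The median log2 fold change was 0.21 over the members and 0.00 over all genes. In glucose-starved Wilmar-A 61 members (51 loci) were higher and 42 (41 loci) lower, 20.1% and 13.8%, beside a background of 15.3% and 21.1% and medians of -0.13 over the members and -0.21 over all genes. Within that background coding rows stood at 16.4% and 18.6%, and the other SPNCRNA genes at 9.03% and 36.3%. When glucose replicate 1 of Wilmar-A was entered as unstranded, the Wilmar-A counts were 69 higher and 28 lower, of which 58 and 20 were among the first calls, and without that library 48 and 23. The background shares given are those of the first fit. Without Wilmar-P glucose replicate 2 the Wilmar-P count of 84 fell to 37, and without Wilmar-A glucose-starved replicate 1 or replicate 2 the Wilmar-A count of 103 fell to 61 or 50.

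The calls of the isolates, which share no library, overlapped. Both isolates called 49 members higher, 84.5% of the Wilmar-P list and 80.3% of the Wilmar-A list, and 19 lower, 73.1% and 45.2%. No member was called in opposite directions. The same overlap over all genes is not given here, so these shares are no trait of the members. The difference between the isolates' responses was itself tested as an interaction: 0 of 304 members passed in edgeR (13 at an unadjusted p below 0.05), and 0 of 6662 genes.

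**Figure D3:**
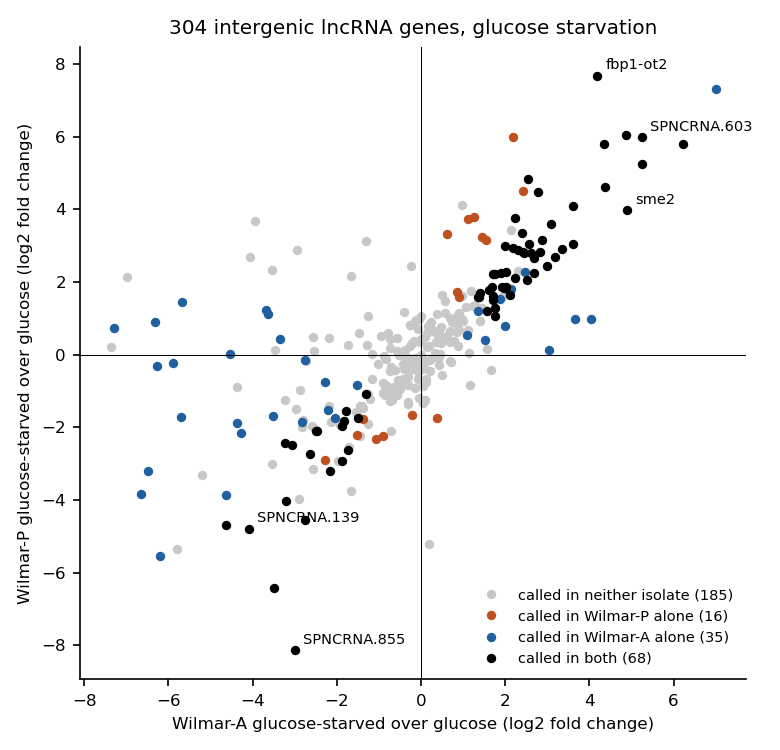
Log2 fold change of the 304 members tested in glucose-starved against glucose cells, Wilmar-P on the vertical axis and Wilmar-A on the horizontal axis, 1 point per member. Black points (68) were called in both isolates, orange (16) and blue (35) in 1 of them, grey (185) in neither. The black points lie in the upper right and lower left. Blue points at the far left include SPNCRNA.493, SPNCRNA.443 and SPNCRNA.105.

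Of the RNAs beside glucose-repressed genes, fbp1-ot2 had 3.37 and 0.598 CPM in the starved Wilmar-P libraries, against 0 counts in both glucose libraries. The low group sets a limit: with 3 counts per library as the floor, fbp1-ot2 was at least 12.1-fold higher. In Wilmar-A it had 2.50 and 2.72 CPM in the starved libraries, against 0.0927 and 0.189 CPM in glucose (log2 fold change 4.18 ± 1 SE, adjusted p = 0.00964). The glucose libraries hold 2 and 3 counts, and the ratio of the summed values was 19.5 (counting interval 7.91 to 62.2, which covers counting error alone). The groups did not overlap in either isolate, and the Wilmar-P call was lost without Wilmar-P glucose replicate 2 (adjusted p = 0.0995). In the deficient libraries fbp1-ot2 stayed at 0.0586 and 0.0713 CPM in Wilmar-P and 0.101 and 0.155 CPM in Wilmar-A, at or under 3 counts in each library. The coding gene fbp1, 1873 bases downstream on the same strand, was called higher in both media: by 5.90 and 5.57 on the log2 scale in starved Wilmar-P and Wilmar-A, and by 5.12 and 5.54 in the deficient ones. The divergent neighbour of fbp1-ot2, wwm3, rose on starvation by 4.88 and 4.90 and was not called in the deficient medium (0.63 and 1.32). Starved and deficient cells were not compared by a test.

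SPNCRNA.603 (chrI:81468-82345) starts 400 bases from ght3, a hexose transporter family gene on the opposite strand. It had 47.4 and 13.3 CPM in starved, 5.16 and 3.99 CPM in deficient and 0.507 and 0.509 CPM in glucose Wilmar-P libraries. In Wilmar-A it had 24.9 and 18.4 CPM in starved, 5.39 and 4.66 CPM in deficient and 0.510 and 0.630 CPM in glucose libraries. In both isolates the 3 media fell in the same order with no overlap. The starved against glucose change was 5.99 ± 0.80 in Wilmar-P (SE, adjusted p = 0.000416) and 5.24 ± 0.74 in Wilmar-A (adjusted p = 0.000497). The deficient change was 3.15 ± 0.70 in Wilmar-P (adjusted p = 0.0526, not called) and 3.02 ± 0.72 in Wilmar-A (adjusted p = 0.0319), a call lost without Wilmar-A glucose replicate 1 (adjusted p = 0.129) or either deficient library (0.0681 and 0.463). ght3 itself showed the other order, 3.67 and 3.96 on starvation and 6.96 and 6.85 in the deficient medium in Wilmar-P and Wilmar-A. On molasses SPNCRNA.603 had 0 counts in both Wilmar-P libraries and in 1 laboratory library.

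SPNCRNA.989 (chrI:4455878-4458045), divergent from the aldehyde dehydrogenase gene atd1, and SPNCRNA.328 (chrII:813467-813747), divergent from anc1, the mitochondrial ADP/ATP carrier gene, were called higher in both media and both isolates. SPNCRNA.989 had 32.6 and 22.8 CPM in starved, 9.44 and 14.7 CPM in deficient and 3.13 and 4.07 CPM in glucose Wilmar-P libraries. In Wilmar-A it had 30 and 31.5 CPM in starved, 12.4 and 19.0 CPM in deficient and 3.15 and 3.59 CPM in glucose libraries. The change in SPNCRNA.989 was 2.68 and 3.19 on the log2 scale in starved and 1.72 and 2.46 in deficient Wilmar-P and Wilmar-A, and that in SPNCRNA.328 was 2.43, 3.00, 2.61 and 3.30 in the same order. The starvation calls of both were kept in each refit without 1 library. In the deficient medium the Wilmar-P call of SPNCRNA.989 was lost without any 1 of its 4 libraries (adjusted p = 0.0637 to 0.336), that of SPNCRNA.328 without 3 of them (adjusted p = 0.106 to 0.166), and both Wilmar-A calls without deficient replicate 2 (0.203 and 0.173). Their divergent neighbours also rose on starvation, atd1 by 1.72 and 1.95 and anc1 by 1.89 and 2.04. SPNCRNA.821 and SPNCRNA.1502 had larger changes on starvation. SPNCRNA.821 (chrI:2380416-2381234) had 11.2 and 26.9 CPM in starved Wilmar-P, against 0.461 and 0.382 CPM in glucose, and 14.4 and 24.6 CPM in starved Wilmar-A, against 0.556 and 0.441 CPM in glucose (log2 fold change 5.26 in both isolates, adjusted p = 0.000468 and 0.00026). SPNCRNA.1502 had 6.14 and 6.67 CPM in starved Wilmar-P, against 0.369 and 0 CPM in glucose, but it overlaps a proline tRNA row, so its reads cannot be told apart from those of that gene. SPNCRNA.451, beside hsp3101, had 1.6 and 3.59 CPM in starved Wilmar-P, against 0 and 0.0636 CPM in glucose (adjusted p = 0.00273). The glucose libraries hold 0 and 1 counts, so the size of the change is poorly known: the ratio was 96.8, and its counting interval runs between 16.7 and 3885.8. SPNCRNA.534 was called in Wilmar-P on 2.02 and 27.8 CPM, against 1.29 and 0.127 CPM in glucose, starved libraries that differ widely, and the call was lost without Wilmar-P glucose replicate 2 (adjusted p = 0.0941).

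Among meiotic RNAs sme2 rose on starvation. It had 11.4 and 13.7 CPM in starved Wilmar-P, against 0.737 and 0.763 CPM in glucose, and 44.4 and 27.2 CPM in starved Wilmar-A, against 0.649 and 1.76 CPM in glucose. The log2 fold changes were 3.98 ± 0.70 (SE, adjusted p = 0.00151) and 4.90 ± 0.66 (adjusted p = 0.000286), and these calls were kept under every alternative in which sme2 was tested. In the deficient medium the value was 0.96 in both isolates and was not called. omt3 (SPNCRNA.130), a second RNA of the meiotic foci in which sme2 gathers, lies divergent from mei2. It had 0 and 0.171 CPM in starved, 13.9 and 2.64 CPM in deficient and 0.461 and 2.80 CPM in glucose Wilmar-P libraries, and was called in no comparison. The neighbour mei2 was called higher in the deficient medium, by 2.67 in Wilmar-P and 2.22 in Wilmar-A. meu11 (SPNCRNA.17) changed by -2.50 and -3.06 on starvation (adjusted p = 0.0115 and 0.00415), and the Wilmar-P call was lost without glucose replicate 2 or starved replicate 1 (adjusted p = 0.158 and 0.0677).

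Of the 6 members with the highest level, snoR61, prl59 and the mrp1 row SPNCRNA.82 rose on starvation in both isolates. snoR61 had 111.5 and 203.9 CPM in starved Wilmar-P, against 13.9 and 26.8 CPM in glucose, and 127.3 and 138.5 CPM in starved Wilmar-A, against 19.7 and 23.9 CPM in glucose. On the log2 scale snoR61 rose by 2.81 and 2.61 (adjusted p = 0.000525 and 0.000497). prl59, divergent from imt3, rose by 2.90 and 3.35, and SPNCRNA.82 of mrp1 by 2.84 and 2.83. The changes of the other, overlapping mrp1 row, SPNCRNA.727, are not given here, so the result is that of 1 row. A second small nucleolar RNA gene, snR95, rose by 2.24 and 1.90. Of the 6 snoRNA members, all tested, 3 were called higher in both isolates (snoR61, snR95 and SPNCRNA.1394), and this class was picked after the values were seen. srp7, the RNA of the signal recognition particle, was not called: it had 4.21 and 3.08 CPM in starved Wilmar-P, against 2.44 and 3.69 CPM in glucose. Of the 13 non-coding RNA genes listed by name, 4 were members (mrp1, sme2, omt3 and srp7).

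Among members that fell on starvation, one pair stood next to str3, a transporter gene for haem and siderophore iron. SPNCRNA.139 (chrI:90868-91753) and SPNCRNA.604 overlap each other on opposite strands there. SPNCRNA.139 had 0.589 and 0.342 CPM in starved, 26.9 and 18.6 CPM in deficient and 20.2 and 12.4 CPM in glucose Wilmar-P libraries. In Wilmar-A it had 0.807 and 0.815 CPM in starved, 11.6 and 8.85 CPM in deficient and 17.7 and 10.1 CPM in glucose libraries. The starved libraries lay below all others in both isolates (log2 fold changes -4.79 ± 0.44 and -4.09 ± 0.40, SE, adjusted p = 4.75e-05 and 5.98e-05). SPNCRNA.604 changed by -4.69 and -4.64, and str3 by -7.93 and -5.61. In the 3 libraries labelled unstranded reads of this overlapping pair cannot be told apart. The same may hold for Wilmar-A glucose replicate 1 (17.7 CPM of SPNCRNA.139), which is labelled stranded but stood with them. SPNCRNA.855 and SPNCRNA.780 had the lowest log2 fold changes in Wilmar-P, since no counts were left. SPNCRNA.855 had 0 counts in both starved Wilmar-P libraries, against 1.24 and 3.18 CPM in glucose, and was at least 8.69-fold lower. In Wilmar-A the change of SPNCRNA.855 was -2.99 ± 0.95 (adjusted p = 0.0279). The Wilmar-P call was lost without glucose replicate 2 (adjusted p = 0.0662) and the Wilmar-A call without glucose replicate 2 or either starved library (adjusted p = 0.0612 to 0.157). SPNCRNA.780 had 0 counts in both starved Wilmar-P libraries, against 0.415 and 0.827 CPM in glucose, and was at least 2.44-fold lower, a call lost without glucose replicate 2 (adjusted p = 0.0969). In Wilmar-A SPNCRNA.780 had 1 and 0 counts in starved libraries, against 8 and 12 in glucose (log2 fold change -3.48 ± 1.06 SE, adjusted p = 0.0234), a call lost without glucose replicate 2 or starved replicate 2 (adjusted p = 0.0732 and 0.123).

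Several of the largest negative values in Wilmar-A rested on the library that stood apart. SPNCRNA.105 had 0.0807 and 0 CPM in starved Wilmar-A, against 7.55 and 0.126 CPM in glucose, where 7.55 CPM is Wilmar-A glucose replicate 1. It had 6.82 to 7.85 CPM in the 3 unstranded libraries and at most 0.548 CPM in the remaining ones. SPNCRNA.493 and SPNCRNA.443 had the same profile, and the Wilmar-A calls of all 3 were lost when that library was entered as unstranded (adjusted p = 0.3 to 0.728) or left out (adjusted p = 0.175 to 0.56).

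**Figure D4:**
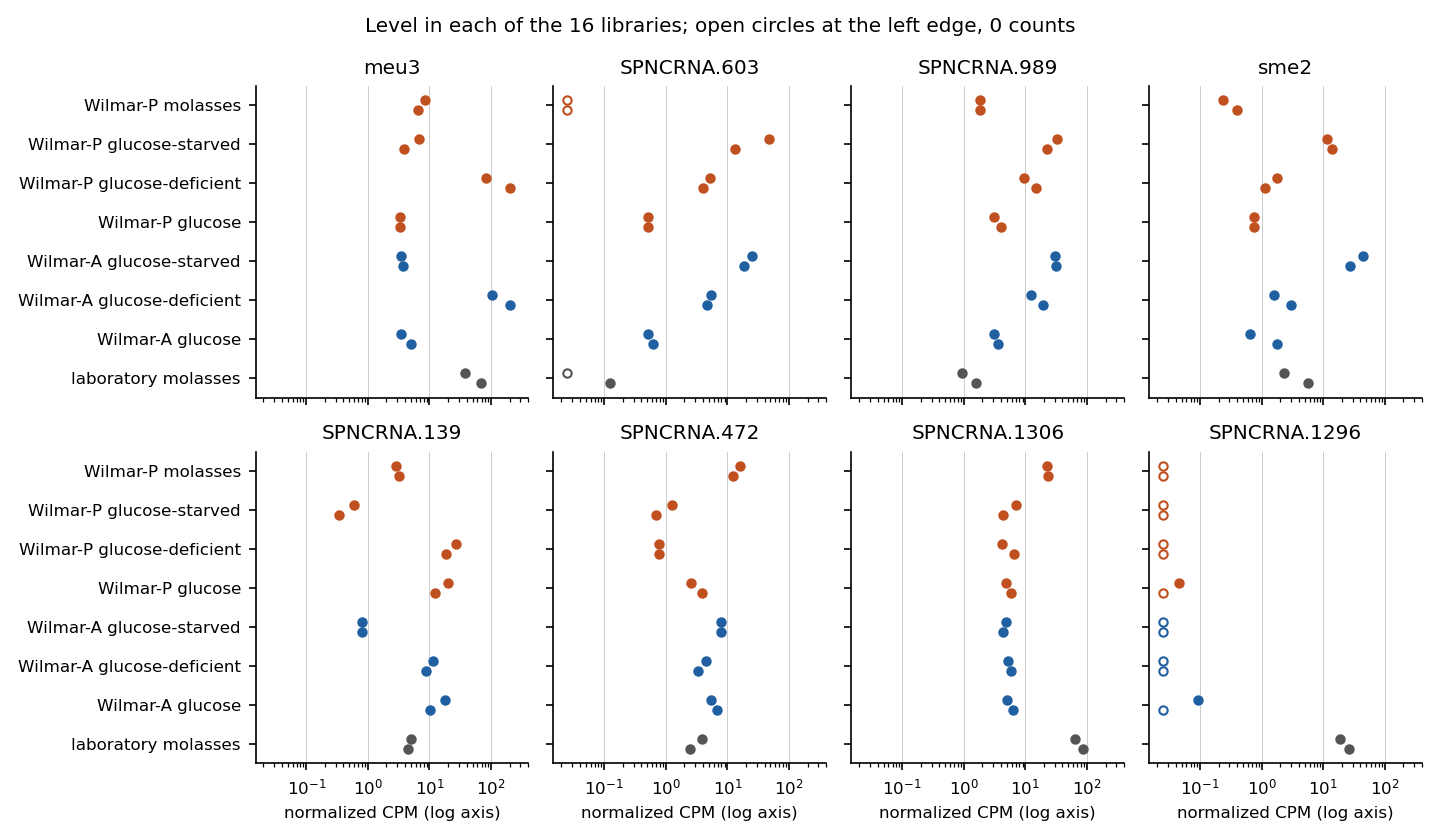
Normalized CPM on a log axis of 8 members in the 16 libraries, 2 points per group, orange for Wilmar-P, blue for Wilmar-A and grey for the laboratory strain. Open circles at the left edge are libraries with 0 counts. meu3 is highest in the deficient groups, SPNCRNA.603 and sme2 in the starved groups, and SPNCRNA.1296 has 279 and 434 counts in the laboratory libraries and at most 2 in any Wilmar library.

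Few members were called in the glucose-deficient medium, and meu3 and meu19 had the highest log2 fold changes among them in both isolates. In Wilmar-P 4 members were higher and 1 was lower (1.32% and 0.329%), beside a background of 1.92% and 0.21% over all genes, with medians of -0.27 over the members and 0.03 over all genes. In Wilmar-A 14 were higher and 6 lower (4.61% and 1.97%), beside a background of 5.57% and 5.85% and medians of -0.54 and -0.09. That background joins unlike parts: coding rows stood at 6.45% and 3.26%, and the other SPNCRNA genes at 2.23% and 19.3%. All 4 higher in Wilmar-P were among the 14 of Wilmar-A, 28.6% of that list, and the overlap over all genes is not given here either. Here too the interaction gave 0 of 304 members in edgeR (22 at an unadjusted p below 0.05). None of the 6 lower calls in Wilmar-A was kept when glucose replicate 1 of that isolate was entered as unstranded, while 13 of the 14 higher ones were. The Wilmar-A count fell to 5 without that library, to 7 and 2 without deficient replicate 1 or 2, and was 66 without glucose replicate 2. The Wilmar-P count was 2 or 3 without any 1 library.

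meu3 had 83.5 and 202.0 CPM in deficient Wilmar-P, against 3.27 and 3.31 CPM in glucose, and 105.1 and 206.1 CPM in deficient Wilmar-A, against 3.48 and 5.04 CPM in glucose. meu19 had 73.0 and 162.2 CPM in deficient Wilmar-P, against 3.09 and 4.01 CPM in glucose, and 91.6 and 161.5 CPM in deficient Wilmar-A, against 3.71 and 5.10 CPM in glucose. In all 4 cases the groups were far apart, and within each deficient pair the unstranded library was the lower. The log2 fold changes were 5.27 ± 0.44 and 5.52 ± 0.45 for meu3 and 4.95 ± 0.33 and 5.19 ± 0.34 for meu19 (SE, adjusted p = 5.18e-05 to 0.000264), and these calls were kept under every alternative in which the genes were tested. In Wilmar-A the next in size were SPNCRNA.549 and SPNCRNA.1256, which overlap on 1 strand and had the same counts here, 15 and 14 in deficient libraries, against 1 and 0 in glucose. The ratio of their summed values was 33.2 (counting interval 5.5 to 1355.2), and both calls (adjusted p = 0.0243 and 0.0244) were lost without Wilmar-A glucose replicate 1 (adjusted p = 0.0745 and 0.0748) or deficient replicate 2 (0.463). On starvation meu3 stood at 6.73 and 3.85 CPM in starved Wilmar-P and 3.39 and 3.71 CPM in starved Wilmar-A, and its log2 fold changes of 0.23 and -0.26 were not called. The nickel transporter gene nic1, upstream of meu3 and divergent from it, had values of 0.23 and 0.13 in the deficient medium.

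Molasses against glucose in Wilmar-P called 4 members higher and 1 lower (1.32% and 0.329%), beside a background of 0.721% and 0.48%, with medians of -0.26 over the members and -0.01 over all genes. The 4 were SPNCRNA.900, divergent from the glutamate synthase gene glt1, SPNCRNA.1157, SPNCRNA.1572 and SPNCRNA.1306. SPNCRNA.900 had 4.13 and 7.25 CPM on molasses, against 0.230 and 0.509 CPM in glucose (log2 fold change 4.03 ± 0.77 SE, adjusted p = 0.0333). SPNCRNA.1306 had 22.8 and 23.7 CPM on molasses, against 4.89 and 5.85 CPM in glucose (1.94 ± 0.32, adjusted p = 0.0183). These groups did not overlap, and the starved and deficient libraries of both isolates held SPNCRNA.1306 between 4.22 and 6.99 CPM. The member that was lower was SPNCRNA.139, with 2.86 and 3.23 CPM on molasses, against 20.2 and 12.4 CPM in glucose (-2.11 ± 0.38, adjusted p = 0.0232), and its neighbour str3 was lower as well (-2.67). With 1 library left out, 0 or 1 of the 5 calls remained (0 without Wilmar-P glucose replicate 2 or molasses replicate 1).

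On molasses Wilmar-P had lower levels than the laboratory strain at many of these loci, by reads counted on the laboratory genome. In Wilmar-P 1 member was higher and 27 (23 loci) were lower, 0.329% and 8.88% of those tested, beside a background of 0.645% and 2.46%. Coding rows stood at 0.606% and 1.82%, and the other SPNCRNA genes at 0.894% and 3.75%. The median log2 fold change was -0.85 over the members, -0.46 over the other SPNCRNA genes, -0.01 over all genes and 0.04 over coding rows. Of the 304 members, 230 (75.7%) had a negative value, beside 45.6% of coding rows. In total the members took 0.101% and 0.0988% of counts in the Wilmar-P libraries, against 0.183% and 0.322% in the laboratory libraries. Laboratory molasses was the group with the highest mean for 93 of the 304, and the highest for 120 when only replicate 2 of each group was used. The same count over all genes is not given here, so it is no trait of the members. The 2 laboratory libraries were unlike: without replicate 2 the median was -0.34 and 4 members were called, without replicate 1 the values were -1.13 and 46. Without Wilmar-P molasses replicate 1 or replicate 2, 2 or 1 members were called at medians of -0.91 and -0.87. The strains differ in mating type, origin and use, and differences of sequence can lower Wilmar counts on the laboratory genome. These cannot be told apart here.

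The lowest log2 fold change was that of SPNCRNA.1296 (chrIII:2422419-2423268), 538 bases from SPCC569.05c. It had 0 counts in both Wilmar-P molasses libraries, against 279 and 434 counts (18.7 and 26.4 CPM) in the laboratory libraries, and was at least 95.1-fold lower in Wilmar-P (adjusted p = 0.0105). The call was lost without either Wilmar-P molasses library or laboratory replicate 2 (adjusted p = 0.0779 to 0.0897). In all 14 Wilmar libraries together SPNCRNA.1296 had 3 counts. Whether the Wilmar genomes hold this locus was not analysed here. Its downstream neighbour SPCC569.06 was lower in Wilmar-P as well (-1.88). SPNCRNA.1310 had 0 counts in all 14 Wilmar libraries and 12 and 22 in the laboratory ones, and 7 members in all were at 3 counts or fewer in each Wilmar library and above 3 in both laboratory libraries. How many of all rows did so was not counted. Among the 7, SPNCRNA.1166 and SPNCRNA.06 overlap on 1 strand and share reads. SPNCRNA.753 had only 7 and 4 counts in the laboratory libraries.

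Other members lower in Wilmar-P included meu19, meu3 and sme2. meu19 had 5.64 and 4.49 CPM in Wilmar-P on molasses, against 44.4 and 77.6 CPM in the laboratory strain (log2 fold change -3.59 ± 0.31 SE, adjusted p = 0.000174). meu3 had 8.42 and 6.55 CPM in Wilmar-P, against 38.3 and 69.6 CPM in the laboratory strain (-2.85 ± 0.39, adjusted p = 0.00345), a call lost without Wilmar-P molasses replicate 2 (adjusted p = 0.0659). sme2 had 0.238 and 0.394 CPM in Wilmar-P, against 2.28 and 5.6 CPM in the laboratory strain (-3.61 ± 0.70, adjusted p = 0.0206). This last call was lost without either Wilmar-P library or laboratory replicate 2 (adjusted p = 0.128 to 0.204).

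SPNCRNA.31 lies inside SPNCRNA.867 on the same strand, between the alpha-glucosidase gene agl1 and the copper transporter gene mfc1, so its reads were counted in both rows, and the pair was named after its values were seen. SPNCRNA.31 had 6.03 and 3.23 CPM in Wilmar-P, against 40.8 and 53.5 CPM in the laboratory strain (-3.35 ± 0.54, adjusted p = 0.00737). SPNCRNA.867 changed by -2.17 ± 0.34 (adjusted p = 0.00677). SPNCRNA.1306, higher on molasses than in glucose within Wilmar-P, was higher still in the laboratory strain: 22.8 and 23.7 CPM in Wilmar-P, against 64.9 and 87.5 CPM (-1.71 ± 0.29, adjusted p = 0.00988), a call lost without either Wilmar-P library or laboratory replicate 2 (adjusted p = 0.0863 to 0.137). Both comparisons of SPNCRNA.1306 use the same Wilmar-P molasses libraries.

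SPNCRNA.472 was the 1 member higher in Wilmar-P than in the laboratory strain on molasses, and also the 1 member called between the isolates. It lies (chrIII:715986-717312) divergent from bfr1, an ABC transporter gene for resistance to brefeldin A. On molasses it had 16.2 and 12.1 CPM in Wilmar-P, against 3.89 and 2.50 CPM in the laboratory strain (2.14 ± 0.43 SE, adjusted p = 0.0237). In glycerol and glucose the order of Wilmar-P and Wilmar-A was the same in each medium: 1.26 and 0.684 CPM in Wilmar-P against 7.91 and 7.88 CPM in Wilmar-A on starvation, 0.762 and 0.784 against 4.48 and 3.34 CPM in the deficient medium, and 2.54 and 3.88 against 5.47 and 6.68 CPM in glucose. The mean of the 3 media gave -2.08 ± 0.26 (adjusted p = 0.0028), the only call among 304 members (0.329%), beside a background of 0.21% higher and 0.39% lower. The median over the members was -0.22, over all genes -0.02, and 31 members had an unadjusted p below 0.05. Without Wilmar-A glucose replicate 2, 12 members were called, and without any other library 1 or 2. Both neighbours differed in the same direction, bfr1 by -1.19 and SPCC18B5.02c by -1.85 between the isolates. The molasses call of SPNCRNA.472 was lost without either Wilmar-P molasses library or laboratory replicate 2 (adjusted p = 0.103 to 0.184).

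The span of chromosome III that is duplicated in Wilmar-P holds 4 members, and 2 were tested. SPNCRNA.1116 had a log2 fold change of 0.49 and SPNCRNA.1119 of 0.26 for Wilmar-P over Wilmar-A, and neither was called. On starvation SPNCRNA.1116 was called in Wilmar-P, with 27.4 and 51.6 CPM against 14.2 and 12.9 CPM in glucose (1.58), and that call was lost without Wilmar-P glucose replicate 2 (adjusted p = 0.0863).

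Because most members start opposite a coding gene, each was set beside its upstream neighbour within 1000 bases. Over 187 divergent pairs the log2 fold changes of member and neighbour on starvation had a Pearson correlation of 0.433 in Wilmar-P and 0.371 in Wilmar-A. Over 47 tandem pairs it was 0.0605 and 0.0202. Divergent pairs of coding genes under the same limit of 1000 bases, 717 in number, gave 0.239 and 0.185. The 2 kinds of pair were not matched for distance within that limit or for level. These are descriptions across genes, which are not replicates and share the libraries, their depth and the shared promoter region. On starvation 51 of the Wilmar-P divergent members were called, of which 23 had a neighbour called the same way and 7 the opposite way. The Wilmar-A numbers were 66, 25 and 11. Such counts are not given for the coding pairs, so these are no trait of the members. Of all coding rows, 30.1% were called on starvation in Wilmar-P and 34.9% in Wilmar-A. SPNCRNA.855 and spd2, 45 bases apart, are an opposite pair: in Wilmar-P spd2 rose by 1.87 while SPNCRNA.855 had no counts left. In the laboratory comparison the order of the 2 kinds of pair was turned, 0.247 for members and 0.416 for coding pairs.

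**Figure D5:**
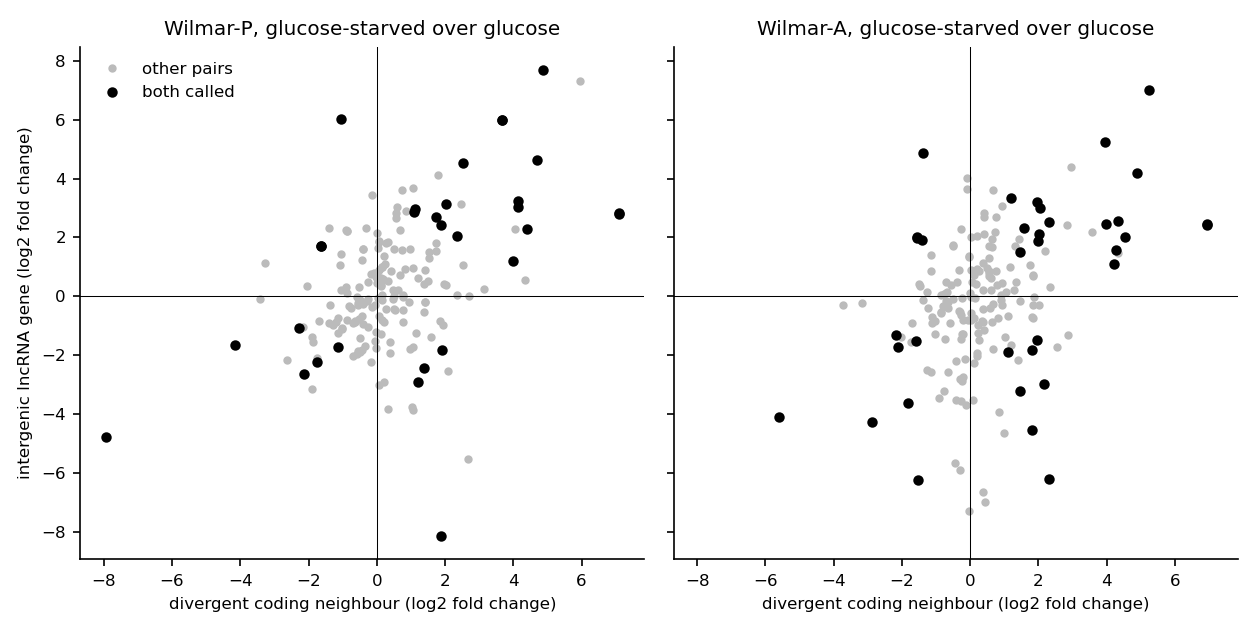
Log2 fold change of each member against that of its divergent upstream coding neighbour within 1000 bases, starved over glucose, in Wilmar-P (left) and Wilmar-A (right), 187 pairs each. Black pairs have both genes called. Of the black pairs, 23 in Wilmar-P and 25 in Wilmar-A changed the same way, and 7 and 11 the opposite way.

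The factors that end, process and destroy such RNAs were measured in the same libraries, from a list of 40 genes of which 38 were matched and tested. On starvation 1 was called higher and 8 lower in Wilmar-P, and 1 higher and 12 lower in Wilmar-A. Over all genes 12.1% and 21.1% were called lower, and over coding rows 13.8% and 18.6%. The medians over the 38 genes were -0.68 and -0.69, beside 0.00 and -0.21 over all genes. The exosome subunit genes csl4 (-1.63 and -1.59), rrp41 (-1.46 and -1.88), rrp4 (-1.26 and -1.06) and rrp45 (-1.25 and -1.16), the nuclear exosome nuclease gene rrp6 (-1.04 and -1.08) and the helicase gene sen1 (-1.67 and -1.5) fell in both isolates. Other subunit genes of the same complex, mtr3 (-0.06 and 0.02), rrp46 (-0.21 and -0.14), rrp40 (-0.34 and -0.32) and rrp43 (-0.69 and -0.58), were called in neither. red5, a zinc finger gene of the machinery that removes meiotic transcripts, rose by 1.37 and 1.30, and mmi1 fell by 1 in Wilmar-P. In the deficient medium 0 of 38 were called in Wilmar-P and 1 in Wilmar-A (cid14, -1.11), and 0 in both molasses comparisons and between the isolates. The part of these factors in the members' levels was not tested.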

How the data were processed

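Whole-number read counts per row were deposited for 16 libraries. Per the labels and the methods, the authors trimmed reads with cutadapt 1.9.1, aligned them with TopHat2 2.1.1 to the laboratory reference (build ASM294v2) and counted them with featureCounts 1.5.2, with a read assigned to every row it overlapped. How multiply matching reads were placed is not given in the sources used here. Of 7019 rows, 6662 passed filterByExpr. Counts were fitted with edgeR 4.0.16 (R 4.3.3), TMM factors and the quasi-likelihood test, all 16 libraries in 1 model with group and labelled strandedness (7 residual degrees of freedom). A gene was called when its log2 fold change exceeded 1 in size and its Benjamini-Hochberg adjusted p was below 0.05. Sequences came from RefSeq ASM294v3. Members named were, in each comparison, the 4 called members highest and the 4 lowest in log2 fold change without overlap between groups, the 6 highest in level, those with a RefSeq symbol, and those in the duplicated span. Alternatives changed scaling (DESeq2 1.42.0), test, filters, strandedness, replicate block and libraries. Members and lists were chosen with earlier results of these data known.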

Additional observations from a re-analysis of the deposited data

How the results depend on the processing

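No named member reversed its direction, and 38 of 87 named calls were kept under every alternative in which they could be tested. Counts are members called, in the order used in the report, and the shares over all genes under each alternative are not given. A DESeq2 Wald test called 11 members in deficient Wilmar-P, 33 in deficient Wilmar-A, 13 on molasses against glucose and 3 between the isolates. With 10 or more counts required in every library, the counts were 43 and 41 in starved Wilmar-P and Wilmar-A, 12 in deficient Wilmar-A, 2 on molasses, 16 against the laboratory strain and 0 between the isolates, with medians of 0.38 and 0.50 on starvation, -0.16 in deficient Wilmar-A, -0.07 on molasses and -0.07 between the isolates. Without the strandedness term the counts were 65 in starved Wilmar-A, 3 in deficient Wilmar-P and 4 in deficient Wilmar-A, with medians of -0.22 and -0.13 in starved Wilmar-P and Wilmar-A, -0.22 in deficient Wilmar-A, -0.53 on molasses and -0.11 between the isolates. With Wilmar-A glucose replicate 1 entered as unstranded the counts were 12 in deficient Wilmar-P, 14 on molasses, 51 against the laboratory strain and 2 between the isolates, and the medians 0.16 and 0.23 on starvation and -0.22 in deficient Wilmar-A. The medians on starvation were 0.14 and -0.18 with no filter, and -0.05 in Wilmar-A with DESeq2 size factors. Left-out libraries gave 37 to 68 calls (medians 0.0 to 0.63) in starved Wilmar-P, 50 to 126 (-0.15 to 0.09) in starved Wilmar-A, 2 to 3 (-0.57 to -0.0) in deficient Wilmar-P, 2 to 66 in deficient Wilmar-A, 0 to 1 (-0.46 to 0.1) on molasses, 1 to 46 (-1.13 to -0.34) against the laboratory strain and 1 to 12 (-0.36 to -0.12) between the isolates. A lone remaining library was assumed to vary like the other groups. Replicate numbers are shared across groups but nothing ties them to a culture or day, and same-numbered libraries deviated together with correlations of -0.0214 to 0.882 across 5119 coding rows. A replicate block left 8 calls in deficient Wilmar-A and medians of 0.11 and -0.11 in starved Wilmar-P and Wilmar-A, and kept the other counts within 1.5 times. The causes of these shifts were not tested. At 3 counts, a member stood at 0.138 to 0.272 CPM, so changes below that level were not detectable at this depth.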
